A study of Mus musculus with 7 samples.

Results

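The genes described here are the EGR transcription factors Egr1, Egr2, Egr3 and Egr4, the NR4A nuclear receptors Nr4a1, Nr4a2 and Nr4a3, and the neuronal activity genes Arc and Npas4. They were taken by name from the count table, and all 9 were found among its 35976 genes. Their levels were measured by RNA-seq in amygdala cells of male C57BL/6J mice, labelled as astrocytes and prepared by papain digestion and capture on beads against the astrocyte antigen ACSA-2. The mice carried adeno-associated virus with a guide against Egfr, the epidermal growth factor receptor gene (sgEgfr, 3 libraries), or against the Rosa26 locus as control (sgRosa, 4 libraries), with Cas9 under the astrocyte promoter GfaABC1D. Virus was expressed for over 2 weeks, and mice of both groups then went through tube restraint (7 days), fear conditioning (1 day) and extinction sessions (3 days). There was no unstressed group, so the values compare the guides in stressed mice. The labels gave no age and did not say that each library was a separate animal, so the spread between libraries may be technical in part.

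EGR proteins are zinc finger transcription factors that bind GC-rich sites, and NR4A proteins are orphan nuclear receptors that bind DNA without a known hormone. Both families are immediate early genes: calcium, cyclic AMP and growth factor signals switch them on within minutes through factors already present in the cell, such as SRF at CArG boxes and CREB at cyclic AMP response elements (CRE). They respond in neurons, glia and many other cells, and also when tissue is dissociated. Arc, a protein that controls AMPA receptor traffic at synapses, and Npas4, a transcription factor that shapes inhibitory synapses, are best known as genes of active neurons.

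The promoter windows of 4 of these genes are shown, those of Nr4a1, Nr4a2, Egr2 and the neuronal gene Npas4. All 4 genes had a higher mean level in sgEgfr, but none passed the test between the guides, and no link of letters to levels was tested. The windows hold letters that match elements through which activity signals can act. Each is the 250 bases before a RefSeq start site in GRCm38.p6, 5′ to 3′ on the strand of the gene. Capitals mark the CRE core TGACG on either strand, the EGR site (GCGGGGGCG or GCGTGGGCG) on either strand and the CArG box. The windows lie at chr15:101266596-101266845 (plus strand) for Nr4a1, chr2:57124004-57124253 (minus strand) for Nr4a2, chr10:67537619-67537868 (plus strand) for Egr2 and chr19:4989972-4990221 (minus strand) for Npas4.
Nr4a1: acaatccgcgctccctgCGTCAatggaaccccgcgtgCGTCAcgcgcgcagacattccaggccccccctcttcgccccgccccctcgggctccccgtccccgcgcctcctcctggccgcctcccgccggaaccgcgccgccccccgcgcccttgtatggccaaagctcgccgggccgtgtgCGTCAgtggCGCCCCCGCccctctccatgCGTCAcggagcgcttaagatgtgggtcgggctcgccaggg
Nr4a2: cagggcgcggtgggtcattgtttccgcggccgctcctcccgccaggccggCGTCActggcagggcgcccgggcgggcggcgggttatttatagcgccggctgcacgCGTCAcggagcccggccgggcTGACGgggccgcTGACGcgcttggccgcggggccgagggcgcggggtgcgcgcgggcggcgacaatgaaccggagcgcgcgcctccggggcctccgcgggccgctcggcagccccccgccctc
Egr2: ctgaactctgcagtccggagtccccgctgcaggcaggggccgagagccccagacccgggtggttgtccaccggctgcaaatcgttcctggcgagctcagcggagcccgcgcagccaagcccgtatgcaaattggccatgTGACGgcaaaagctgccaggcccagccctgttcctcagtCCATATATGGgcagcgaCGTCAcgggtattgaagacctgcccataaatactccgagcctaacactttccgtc
Npas4: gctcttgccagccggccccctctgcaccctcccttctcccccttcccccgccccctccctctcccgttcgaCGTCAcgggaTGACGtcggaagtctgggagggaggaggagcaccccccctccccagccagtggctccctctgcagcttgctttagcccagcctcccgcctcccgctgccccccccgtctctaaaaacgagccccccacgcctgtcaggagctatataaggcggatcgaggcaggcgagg

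The CRE core TGACG occurred in a promoter window of 6 of the 6 members in the promoter table (Egr2, Egr4, Nr4a1, Nr4a2, Nr4a3 and Npas4), against 23.05% of 27025 genes. These counts used 300 bases per start site (250 before, 50 after) and any start site of a gene. The Nr4a1 window held 4 cores, with first bases at -233, -213, -69 and -40 from the start site, and 1 EGR site at -60, which was found in 3.93% of genes. One of the Egr2 windows, shown above, held a CArG box that began at -72 between 2 CRE cores at -111 and -55. A CArG box was found in 1.81% of genes. Npas4 held 2 cores, at -179 and -169. The full CRE TGACGTCA (2.03% of genes), the AP-1 site TGACTCA (5.95%) and the NR4A site AAAGGTCA (1.70%) were in no window of these 6 genes. The 300-base windows of the 4 genes shown had a GC content of 60.0% for Egr2 to 81.7% for Nr4a2, against a median of 52.7% over all windows. The part of base composition in the count of cores was not tested. These matches describe the letters only.

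Libraries held 5852870 to 22579222 counts, so 3 counts stood for 0.133 to 0.513 CPM (counts scaled to library size). The control libraries sgRosa 3 and 4 were alike almost to within sampling noise (chi-square per degree of freedom 1.04 over 13563 genes, where every other pair of libraries was at 14.8 or above), so they were summed and counted as 1 sample, sgRosa 3+4, giving 3 samples per group. Markers of oligodendrocytes took 8.53% to 15.9% of the counts of a sample and astrocyte markers 0.564% to 1.36%, so the libraries held much RNA of other cells beside that of astrocytes. Of 20 neuron markers, 19 had a count in every library, with a summed share of 0.147% to 0.167% of counts in sgRosa and 0.154% to 0.167% in sgEgfr. The RNA-binding protein gene Elavl3 made up 37.4% to 55.1% of this sum in sgRosa and 30.7% to 36.5% in sgEgfr, and without it the share was 0.0703% to 0.104% in sgRosa and 0.0992% to 0.116% in sgEgfr. Slc17a7, the transporter of cortical-type glutamate neurons, had 0 to 14 counts per library. In such mixed samples, fewer cells of a type and less RNA per cell cannot be told apart. For Egfr itself the mean was 8.92 ± 5.40 CPM in control samples against 8.15 ± 2.51 CPM with its guide (SD, n = 3 samples each), which gave a log2 fold change of -0.13 (SE 0.54, edgeR adjusted p = 0.997). Since cuts by Cas9 need not lower the mRNA, this level did not test the guide.

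No member passed the test between the guides. Of the 9 members, 8 passed the filter on low counts, and 0 of these 8 were called by edgeR's quasi-likelihood test at an adjusted p under 0.05, as were 0 of all 14936 genes tested (0%). Egr1 and Nr4a1 had an unadjusted p under 0.05 with the higher mean in sgEgfr, where 1.31% of all genes had this in that direction and 1.37% in the other. For both genes this value was above 0.05 in edgeR with sgRosa 3 and 4 left out and without sgRosa 1, sgEgfr 2 or sgEgfr 3, at 0.0600 to 0.104 for Egr1 and 0.0570 to 0.112 for Nr4a1. For Nr4a1 it was also above 0.05, at 0.0948, with the neuron marker covariate. The lowest unadjusted p was 0.0019 for Egr1 (edgeR with a replicate block) and 0.0077 for Nr4a1 (DESeq2). Adjusted p in these 2 fits was 0.953 and 0.999. The log2 fold change was positive for 5 members (Egr1, Nr4a1, Nr4a2, Npas4 and Egr2) and negative for 3 (Egr3, Arc and Nr4a3). The groups overlapped for all 9 members, while 3.76% of all genes lay wholly higher in sgEgfr and 3.85% wholly lower. The median log2 fold change was 0.40 over the 8 members and 0.02 over all genes.

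**Figure D1:**
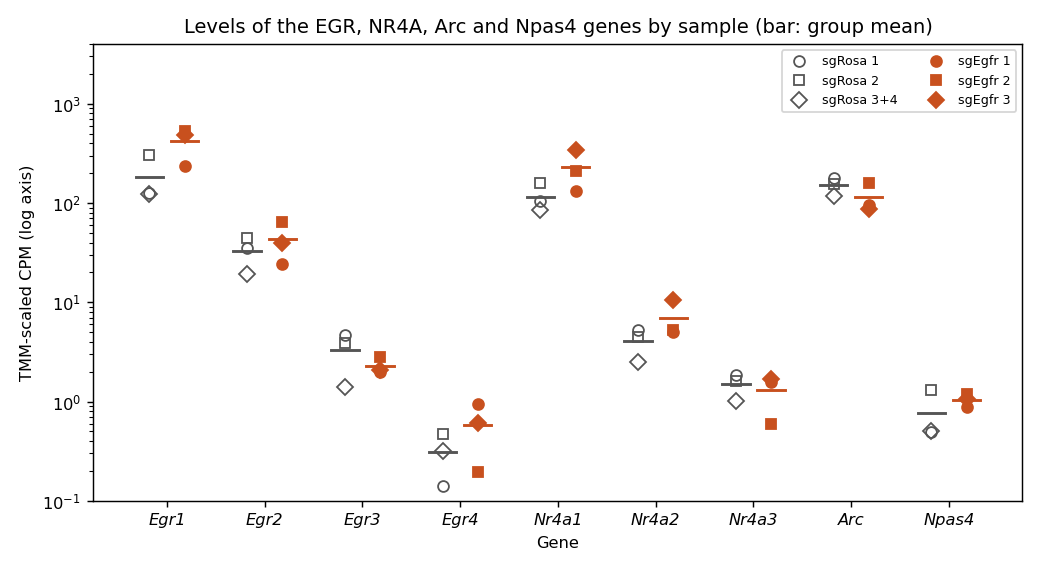
TMM-scaled CPM (log axis) of the 9 genes in the 3 sgRosa samples (open grey symbols) and the 3 sgEgfr samples (filled orange symbols), with bars at the group means. Egr1 and Nr4a1 have 2 of 3 sgEgfr samples above all sgRosa samples, and the groups overlap for every gene.

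Egr1, the EGR factor most used as a marker of activated cells, was the most abundant EGR gene and had a positive log2 fold change, the largest of the 8 tested members except without sgEgfr 2 (0.94, against 1.02 for Nr4a1) and without sgRosa 1 (0.97, against 0.99 for Nr4a2). The gene occupies bases 34861207 to 34864956 of chromosome 18 (GRCm38.p6). Its level, as CPM scaled with TMM factors, was 126, 304 and 124 CPM in sgRosa 1, 2 and 3+4, against 234, 536 and 486 CPM in sgEgfr 1 to 3. Thus sgEgfr 2 and 3 lay above every sgRosa sample, but sgRosa 2 lay above sgEgfr 1. The means were 185 ± 103 CPM for the control guide and 419 ± 162 CPM for the Egfr guide (SD, n = 3), with a log2 fold change of 1.18 (SE 0.44, 95% confidence interval 0.14 to 2.22, edgeR unadjusted p = 0.0306, adjusted p = 0.997). An exact two-sided permutation test of the CPM gave p = 0.2, where 3 samples against 3 cannot go below 0.1. The log2 fold change was 1.91, with a larger SE of 0.71, with the neuron marker score (the mean log2 CPM of neuron markers in a sample) as a covariate.

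Egr2, a factor of myelinating Schwann cells and of activated neurons, was the next EGR gene in abundance. It lies on chromosome 10, from 67534469 to 67542188, and was at 35.4, 44.3 and 19.3 CPM in sgRosa 1, 2 and 3+4, against 24.3, 65.0 and 39.7 CPM in sgEgfr 1 to 3. The highest sample was sgEgfr 2 and the lowest sgRosa 3+4, and sgEgfr 1 lay below sgRosa 1 and 2. The log2 fold change of 0.38 (SE 0.41, 95% confidence interval -0.57 to 1.33, edgeR adjusted p = 0.997) was -0.06 without sgEgfr 2, so its sign rested on that library.

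Egr3, a target of EGR1 and of neuronal activity, had its 2 highest values in sgRosa. On chromosome 14, from 70077317 to 70082613, it was counted at 4.66, 3.92 and 1.40 CPM in sgRosa 1, 2 and 3+4, against 1.97, 2.81 and 2.05 CPM in sgEgfr 1 to 3. The sgEgfr samples all fell inside the range of sgRosa, so the log2 fold change of -0.55 (SE 0.49, 95% confidence interval -1.69 to 0.60, edgeR adjusted p = 0.997) rests on sgRosa 1 and 2. It was -0.91 without sgRosa 3 and 4 and -0.23 without sgRosa 1. Egr4, on chromosome 6 from 85511121 to 85513589, was covered by 2, 9, 2 and 3 reads in libraries sgRosa 1 to 4, by 15, 3 and 14 in sgEgfr 1 to 3, and did not pass the filter. Without a filter its log2 fold change was 0.88 with an SE of 0.88.

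Nr4a1 (Nur77) is the NR4A receptor most readily induced in many cell types, and here it was by far the most abundant of the family. It lies on chromosome 15, from 101253902 to 101274795. It was at 105, 157 and 84.8 CPM in sgRosa 1, 2 and 3+4, against 132, 209 and 343 CPM in sgEgfr 1 to 3. As for Egr1, sgEgfr 2 and 3 lay above every sgRosa sample while sgRosa 2 lay above sgEgfr 1. The means were 116 ± 37.4 CPM and 228 ± 107 CPM (SD, n = 3), which gave a log2 fold change of 0.98 (SE 0.37, 95% confidence interval 0.11 to 1.85, edgeR unadjusted p = 0.0321, adjusted p = 0.997). It was 0.56 without sgEgfr 3.

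Nr4a2 (Nurr1), known for its part in the making of dopamine neurons and induced by activity elsewhere, followed a like order at a much lower level. It lies on chromosome 2, from 57106830 to 57124003, and was at 5.22, 4.49 and 2.48 CPM in sgRosa 1, 2 and 3+4, against 5.07, 5.24 and 10.5 CPM in sgEgfr 1 to 3. Only sgEgfr 3 stood apart: sgEgfr 1 and 2 were level with sgRosa 1. Its log2 fold change of 0.77 (SE 0.43, 95% confidence interval -0.24 to 1.79, edgeR adjusted p = 0.997) was 0.34 without sgEgfr 3. Nr4a3 (Nor1), on chromosome 4 from 48045078 to 48086447, had 1.83, 1.62 and 1.02 CPM in the control samples and 1.59, 0.589 and 1.71 CPM in those with the Egfr guide. Its lowest value was in sgEgfr 2, the sample in which Egr1 and Egr2 were highest, but rested on 9 counts there. The log2 fold change of -0.20 (SE 0.52, 95% confidence interval -1.42 to 1.03, edgeR adjusted p = 0.997) was 0.12 without sgEgfr 2.

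Arc had a lower mean in sgEgfr, opposite to Egr1 and Nr4a1. It lies on chromosome 15, from 74669081 to 74672570, and was at 180, 156 and 119 CPM in sgRosa 1, 2 and 3+4, against 95.2, 160 and 86.1 CPM in sgEgfr 1 to 3. The samples sgEgfr 1 and 3 lay below every sgRosa sample, but sgEgfr 2 lay above sgRosa 2. The means were 152 ± 30.6 CPM and 114 ± 40.4 CPM (SD, n = 3), which gave a log2 fold change of -0.41 (SE 0.27, 95% confidence interval -1.05 to 0.23, edgeR adjusted p = 0.997). It was -0.76 without sgEgfr 2, -0.25 without sgEgfr 3 and -0.66 (SE 0.41) with the neuron marker score as a covariate.

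Relative to the 20 neuron markers, Arc was at 108, 104 and 80.9 counts per 1000 neuron marker counts in sgRosa 1, 2 and 3+4 and at 65.0, 89.2 and 52.4 in sgEgfr 1 to 3. The groups overlapped on this scale too, since sgEgfr 2 lay above sgRosa 3+4 (exact two-sided permutation p = 0.2). With Elavl3 left out of the sum, a choice made after seeing the data, the values were 172, 232 and 137 in sgRosa, against 101, 141 and 75.5 in sgEgfr, again overlapping (exact two-sided permutation p = 0.2). Of the 19 neuron markers tested, 16 had a positive log2 fold change, with a median of 0.43.

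Npas4, unlike Arc, was near the limit of detection. It lies on chromosome 19, from 4984353 to 5003439, where 7, 25, 5 and 3 reads were counted in libraries sgRosa 1 to 4 against 14, 18 and 24 in sgEgfr 1 to 3. In scaled levels this was 0.494, 1.31 and 0.509 CPM in sgRosa 1, 2 and 3+4, against 0.888, 1.18 and 1.05 CPM in sgEgfr 1 to 3. The highest sample was sgRosa 2, and the 3 sgEgfr samples lay between it and the other sgRosa samples. The log2 fold change of 0.41 (SE 0.55, 95% confidence interval -0.88 to 1.70, edgeR adjusted p = 0.997) was 1.04 without sgRosa 2, 0.19 without sgRosa 1 and 1.35 with the neuron marker score as a covariate.

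**Figure D2:**
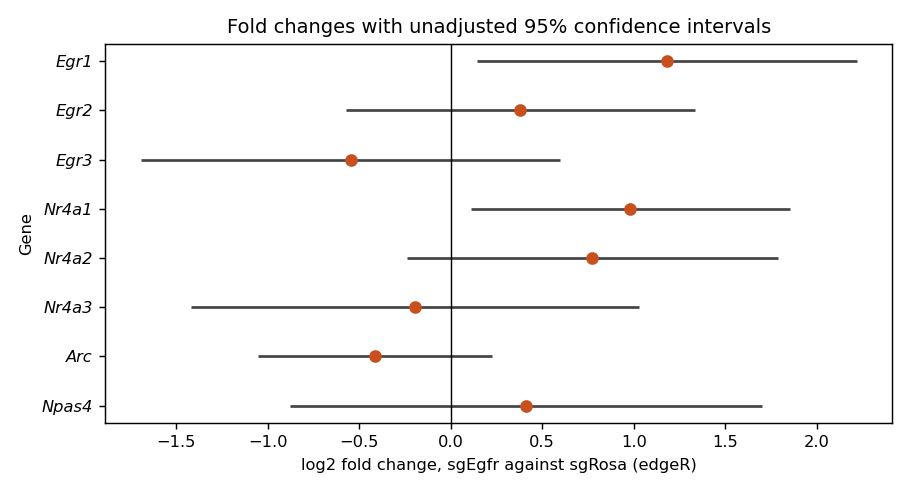
Log2 fold changes of the 8 members that passed the filter, sgEgfr against sgRosa, with unadjusted 95% confidence intervals from edgeR. The intervals of Egr1 (0.14 to 2.22) and Nr4a1 (0.11 to 1.85) lie above 0, and those of the other 6 members include 0.

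Arc was compared with the widely induced genes within each sample, as a ratio of counts, which does not depend on the scaling of libraries. The ratio of Arc to Egr1 was 1.43, 0.515 and 0.956 in sgRosa 1, 2 and 3+4 and 0.406, 0.299 and 0.177 in sgEgfr 1 to 3. Every sgEgfr sample thus lay below every sgRosa sample, which held for neither gene alone. The mean difference was -1.68 on the log2 scale. How often ratios of other gene pairs separate the groups in this way was not counted. The exact two-sided permutation p was 0.1, the smallest that these samples can give, and 0.24 after Benjamini-Hochberg adjustment over the 12 pairs compared (Arc and Npas4, each against 6 EGR and NR4A genes).

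The ratio of Arc to Nr4a1 was 1.72, 0.995 and 1.40 in sgRosa 1, 2 and 3+4 and 0.721, 0.766 and 0.251 in sgEgfr 1 to 3. That of Arc to Nr4a2 was 34.4, 34.8 and 47.9 in sgRosa and 18.8, 30.6 and 8.21 in sgEgfr. These groups did not overlap either, with differences of -1.37 and -1.20 on the log2 scale (exact permutation p = 0.1, adjusted 0.24, for each). For Arc to Nr4a2 the groups were nearest at sgEgfr 2 and sgRosa 1, where Nr4a2 had 80 and 74 counts, so counting noise limits that separation. Against Egr2 the difference was -0.80, and the groups overlapped, since sgEgfr 1 lay above sgRosa 2. Against Egr3 and Nr4a3 it was -0.06 and -0.14, with overlapping groups and an exact permutation p of 1 for both, which does not show that Arc and these genes changed alike.

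The ratio of Npas4 to Egr1 was also lower in every sgEgfr sample (difference -0.65 on the log2 scale), and its ratio to Egr3 was higher in every one (0.97), each with an exact permutation p of 0.1 and 0.24 adjusted. The differences against Egr2 (0.23), Nr4a1 (-0.34), Nr4a2 (-0.17) and Nr4a3 (0.89) had exact permutation p-values of 0.4 to 0.8. The 3 to 25 counts of Npas4 per library limit these ratios, and Npas4 was not tested against Arc.

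**Figure D3:**
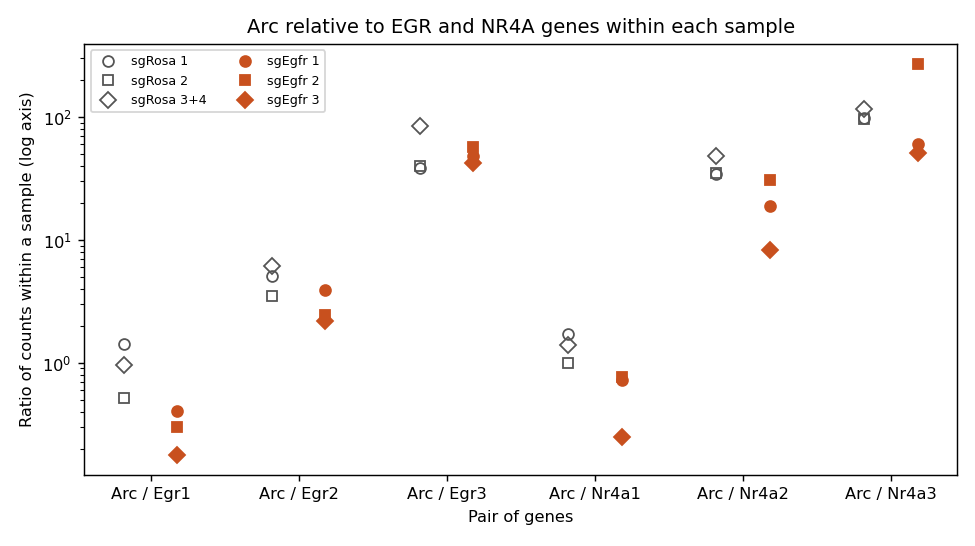
Ratio of Arc counts to the counts of 6 EGR and NR4A genes within each sample (log axis), with sgRosa samples in open grey and sgEgfr samples in filled orange symbols. The groups do not overlap for Egr1, Nr4a1 and Nr4a2 and overlap for Egr2, Egr3 and Nr4a3.

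Levels of different genes were compared as CPM per kilobase of exon, with lengths from GENCODE M21, which may differ from the gene models that the counting used. Egr1 was at 67.3 ± 39.4, Nr4a1 at 64.2 ± 35.3 and Arc at 43.4 ± 12.5 CPM per kilobase (SD, n = 6 samples), and these 3 could not be ordered: Egr1 was above Nr4a1 in 3 of 6 samples and Nr4a1 above Arc in 4 of 6. Egr2 followed at 11.9 ± 5.09, Nr4a2 at 1.47 ± 0.711 and Egr3 at 0.683 ± 0.307 CPM per kilobase, each below its predecessor in 6 of 6 samples. Npas4 (0.250 ± 0.094), Nr4a3 (0.243 ± 0.085) and Egr4 (0.209 ± 0.140) were lowest and overlapped. Arc, although best known from active neurons, had a mean above that of 16 of the 19 neuron markers with a per-length level. The median of these markers was 7.88 CPM per kilobase, and Npas4 had a mean above none of them. This order of means did not hold in each sample. The marker Camk2n1 was above Arc in sgRosa 3+4 (43.0 against 38.9), sgEgfr 1 (31.8 against 31.2) and sgEgfr 3 (57.9 against 28.2), and below it in the others. Only Elavl3, Snap25 and Tubb3 exceeded Arc in mean level, with 90.4, 75.4 and 56.7 CPM per kilobase. These 3 and Camk2n1 were named after their values were seen. The source of the Arc reads among the cell types was not tested.

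The members varied among samples in different ways within a group as well as between groups. The distance between 2 genes was taken as the root mean square difference of their log2 CPM profiles over the 6 samples, each profile centred on its own mean. By this measure the nearest pairs were Nr4a1 with Nr4a2 (0.33), Egr1 with Nr4a1 (0.35) and Egr3 with Arc (0.37), and the farthest were Egr1 with Nr4a3 (1.12), with Egr3 (1.00) and with Arc (1.00). In sgRosa 1, Egr3 and Arc lay 0.82 and 0.49 above their own means while Egr1 lay 1.03 below. In sgEgfr 3 this was turned: Egr1, Nr4a1 and Nr4a2 lay 0.92, 1.16 and 1.04 above their means and Egr3 and Arc 0.31 and 0.57 below. The sample sgRosa 3+4 was below the mean for all 8 members. These genes share libraries and depth, and 6 samples give many close profiles, so the distances are a description.

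**Figure D4:**
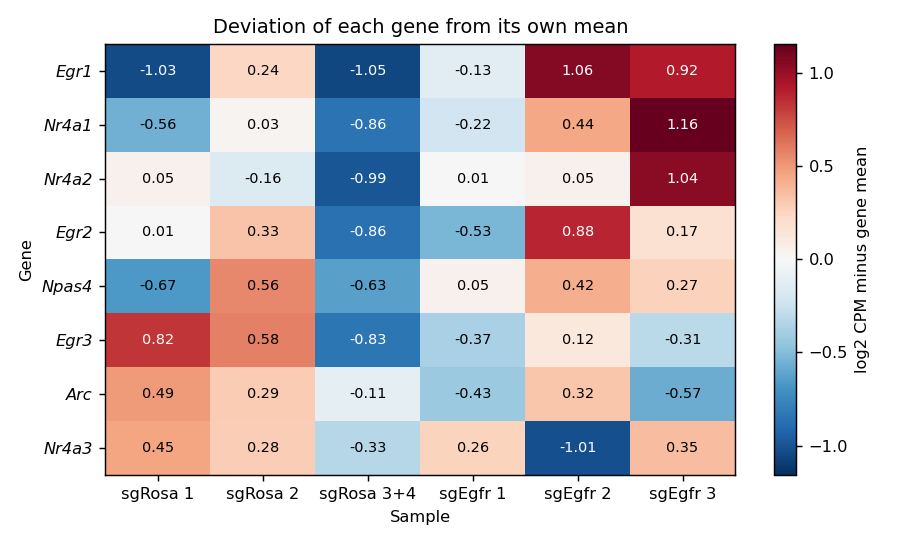
Log2 CPM of 8 members in each sample, minus the mean of the gene over the 6 samples (red above, blue below, values printed). Egr1 and Nr4a1 are highest in sgEgfr 2 and 3, Egr3 and Arc in sgRosa 1, and sgRosa 3+4 is below the mean in every row.

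Among 10821 other genes with a mean of at least 5 CPM, those with profiles nearest to Egr1 were Dusp1, a phosphatase that switches off MAP kinases (distance 0.21), Jun, an AP-1 subunit (0.21), and Zfp36, an mRNA decay factor (0.23). Nearest to Nr4a1 were Junb, another AP-1 subunit (0.18), and the transcription factors Klf6 (0.19) and Maff (0.24). These 6 genes were all on the lists of immediate early genes. Nearest to Arc were Il17ra, a cytokine receptor (0.12), Ubap2 (0.12) and Map6d1 (0.14), none of which is known as an immediate early gene.

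Other immediate early genes mostly had positive log2 fold changes, as did Egr1 and Nr4a1, but their summed shares overlapped between the groups. These shares were 0.104% to 0.224% of counts in sgRosa and 0.181% to 0.343% in sgEgfr for AP-1 genes. For the further genes below they were 0.0673% to 0.116% and 0.0979% to 0.303%. All these genes share the same 6 samples, so the counts of positive genes are a description. Of 7 AP-1 genes tested, 0 were called, 6 had positive log2 fold changes and the median was 0.78, against 0.02 over all genes. Fos had 1.32 (SE 0.44), the stress-induced repressor Atf3 1.89 (SE 0.71) and Jun 0.99 (SE 0.43). Atf3 was at 19.8, 44.4 and 18.5 CPM in sgRosa 1, 2 and 3+4, against 32.5, 55.6 and 218 CPM in sgEgfr 1 to 3. Of 20 further immediate early genes, 0 were called, 19 were positive and the median was 0.97. The sgEgfr samples lay wholly above the sgRosa samples for 0 of the 7 AP-1 genes and 6 of these 20, where 3.76% of all genes did so. The same held for 4 of 12 endothelial markers, 3 of 19 neuron markers, 2 of 13 neuronal late response genes and 2 of 10 heat shock genes. Among the 20, Trib1, a pseudokinase that targets C/EBP factors for decay, had a log2 fold change of 1.08 (SE 0.28), Gadd45g, a growth arrest gene, 1.23 (SE 0.38) and Rgs2, a brake on G protein signals, 1.01 (SE 0.31). Trib1 had 11.9, 14.1 and 16.2 CPM in the control samples and 27.8, 20.6 and 40.9 CPM in those with the Egfr guide. All 6 named genes had an adjusted p of 0.997 in edgeR.

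Late response genes, which neurons switch on after the immediate early genes, were also mostly positive: of 13 tested, 0 were called and 10 were positive. Their median log2 fold change was 0.18, against 0.02 over all genes, of which 52.9% were positive. Vgf, a secreted peptide precursor, was at 0.706, 0.366 and 0.445 CPM in sgRosa 1, 2 and 3+4, against 1.20, 1.51 and 1.09 CPM in sgEgfr 1 to 3, a log2 fold change of 1.32 (SE 0.50). Its groups did not overlap, at a level close to that of Npas4. Nptx2, which clusters AMPA receptors, had 0.78 (SE 0.48) at a like low level, and its groups did not overlap either. These 2 of the 13 genes lay wholly higher in sgEgfr, where 3.76% of all genes did so. Inhba, a subunit of activin, had 1.03 (SE 0.68). Homer1 and Bdnf, a scaffold and a growth factor of active synapses, had -0.35 and -0.27, and these 2 were named after their values were seen.

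The regulators that act on EGR and NR4A genes, and their partner proteins, were mostly slightly negative, with 5 of 22 positive, 0 called and a median log2 fold change of -0.12. Those with the smallest p were the SRF coactivators Mkl2 (-0.55, SE 0.27) and Mkl1 (0.48, SE 0.28) and Nab2, a corepressor of EGR proteins that EGR factors themselves induce (-0.83, SE 0.49). Nab2 had 5.86, 2.98 and 4.51 CPM in the control samples and 3.04, 1.11 and 3.32 CPM in those with the Egfr guide, and the groups overlapped. Of 11 tested genes whose proteins work with Arc at synapses, 0 were called and 5 were positive, with a median of -0.03. The smallest p among them were those of Homer3 (-0.27, SE 0.17), Grin2b, an NMDA receptor subunit (-0.58, SE 0.42), and Sh3gl3, an endophilin (-0.27, SE 0.26). For the genes of this paragraph the edgeR adjusted p was 0.997.

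**Figure D5:**
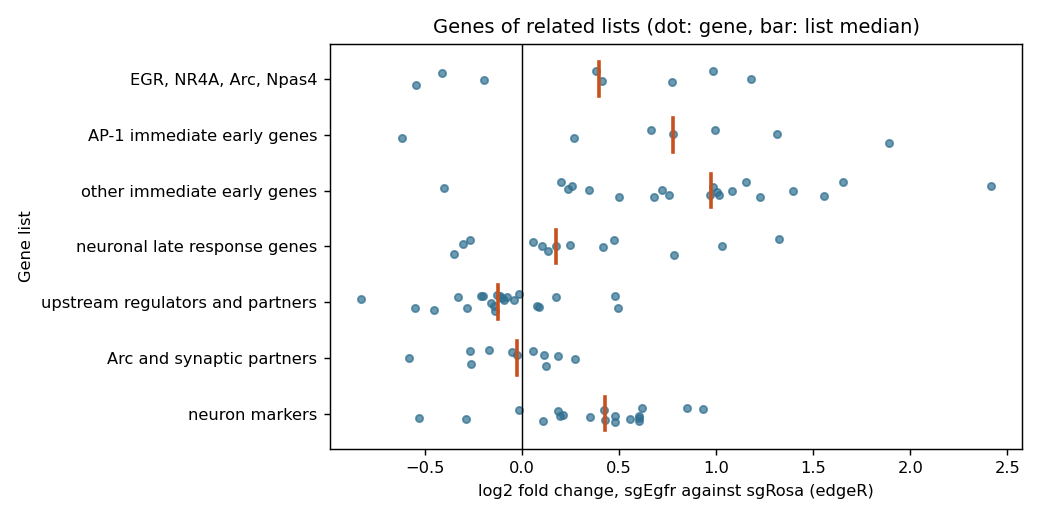
Log2 fold changes, sgEgfr against sgRosa, of the genes tested in 7 lists (dots), with list medians as orange bars. The medians are 0.40 for the members, 0.78 for AP-1 genes, 0.97 for other immediate early genes, 0.18 for late response genes, -0.12 for regulators, -0.03 for synaptic partners of Arc and 0.43 for neuron markers.

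Possible signs of handling and of cell makeup were listed beside these values. Over all genes tested, 52.9% had a positive log2 fold change. Of 10 heat shock genes, 9 were positive with a median log2 fold change of 0.35, among them the chaperone Hspe1 (0.48, SE 0.18), Hspb1 (1.61, SE 0.63) and Hsph1 (0.50, SE 0.23), and 0 were called. Their summed share was 0.207% to 0.313% of counts in sgRosa and 0.295% to 0.335% in sgEgfr. Markers of microglia (12 of 12 positive, median 0.41), endothelial cells (10 of 12, median 0.67), oligodendrocyte precursors (8 of 10, median 0.58) and ependymal cells (8 of 8, median 1.47) were also mostly positive, with 0 called. Summed shares ran from 0.016% to 0.033% in sgRosa and 0.021% to 0.045% in sgEgfr for microglia, and from 0.007% to 0.011% and 0.010% to 0.022% for endothelial cells. For oligodendrocyte precursors they ran from 0.102% to 0.165% and 0.115% to 0.179%. For ependymal cells they were 0.006%, 0.005% and 0.040% in sgRosa 1, 2 and 3+4, and 0.008%, 0.003% and 0.111% in sgEgfr 1 to 3. Only sgEgfr 3 lay above sgRosa 3+4 and sgEgfr 2 was lowest, so the positive ependymal values rest on sgEgfr 3. Astrocyte markers had 9 of 15 positive with a median of 0.20, and oligodendrocyte markers 6 of 14 with a median of -0.08. Mural and fibroblast markers had 5 of 11 positive with a median of -0.01. Blood and choroid plexus markers had 1 of 7 positive with a median of -0.09. The part of handling and of these cell types in the values of the members was not tested.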

How the data were processed

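Per the labels, RNA was isolated from ACSA-2-captured amygdala cells and 5 ng of it went into each library. Values deposited by the authors are raw read counts for each gene, and the 7 files of single libraries held the same counts as the table of the series. Per the submitters' processing notes, the build was mm10 and the tools were fastp 0.23.2, STAR 2.7.5c, featureCounts 2.0.1, FastQC 0.11.9, MultiQC 1.11 and edgeR 3.42.4. The annotation and the strand setting are not given in the sources used here. No gene of the GENCODE M21 basic set overlapped a member. All 9 members matched a RefSeq symbol (GRCm38.p6), and sequences are from RefSeq.

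The members and lists were chosen with earlier results of these data known. Counts of sgRosa 3 and 4 were summed, genes kept with filterByExpr (minimum count 10), scaled with TMM and tested with glmQLFTest in edgeR 4.0.16 (R 4.3.3), 3 samples against 3, with Benjamini-Hochberg adjustment over 14936 genes and a threshold of 0.05. The script was tested on simulated counts. CPM of single genes are TMM-scaled, and list shares are percent of all counts. Log2 CPM profiles used a prior count of 2. Named genes are the members, Egfr, up to 3 genes per list with the smallest unadjusted p, and the 3 genes nearest to Egr1, Nr4a1 and Arc. Alternatives were RLE or no scaling, no filter or a minimum count of 30, DESeq2 1.42.0, limma-voom (limma 3.58.1), 7 separate libraries, sgRosa 3 and 4 left out, a replicate block, a neuron marker covariate and each library left out. Plots were made in matplotlib 3.10.9.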

Additional observations from a re-analysis of the deposited data

How the results depend on the processing

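With each of the 17 alternatives 0 genes were called, with 236 to 960 genes at an unadjusted p under 0.05. Of 134 log2 fold changes of the 8 tested members under these alternatives, 132 kept their sign, and the adjusted p was 0.738 or above for all of them. The 2 that changed sign were those of Egr2 and Nr4a3 without sgEgfr 2. With each library left out, Egr2 ranged from -0.062 to 0.66 and Nr4a3 from -0.45 to 0.12. The same ranges were 0.94 to 1.74 for Egr1, 0.56 to 1.26 for Nr4a1 and -0.76 to -0.25 for Arc. For the log2 ratio of Arc to Egr1, 9 alternatives were added after the data were seen, with differences of -2.07 to -1.33. Their sign could not change, since every sgEgfr library lay below every sgRosa library in this ratio, so it adds no support. With a minimum count of 30, Npas4 and Nr4a3 were not tested. The replicate block gave 1.22 (SE 0.26) for Egr1, 0.91 (SE 0.34) for Nr4a1 and -0.45 (SE 0.22) for Arc. Samples with the same number had correlated deviations over genes of -0.11, 0.52 and 0.55 for numbers 1, 2 and 3. For numbers 2 and 3 this was the best match of either sample, while sgRosa 1 did not correlate best with sgEgfr 1. The labels state no pairing, and whether samples with the same number belong together cannot be told from 3 per group. Counts of 2 to 25 per library limit Egr4 and Npas4, and counts of 7 to 39 limit Nr4a3.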
